A study of Homo sapiens with 18 samples.

Results

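The mean BRM014 effect is the change in newly made messenger RNA that IMR-32, KELLY and SK-N-DZ neuroblastoma cells had in common when their SWI/SNF remodelling ATPases were inhibited. For each gene it is the average, with equal weight for each line, of the log2 fold change between cells given 1 uM BRM014 and cells given DMSO. The average rests on 12 of the 18 libraries of the series, 2 for each treatment in each of the 3 lines. All of these cells were labelled as wild type, and all received 500 uM of the nucleoside 4-thiouridine (4sU) for 2 h before harvest, so that the deposited counts come from RNA made during labelling. IMR-32, KELLY and SK-N-DZ are established lines with an amplified MYCN gene, each a single model of the disease. The sources used here do not give the time of exposure to BRM014. A further 4 libraries are compared at the end, from IMR-32 cells with a mini auxin-inducible degron on SMARCA4 (SMARCA4-mAID), given 500 uM auxin or ethanol.

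SWI/SNF complexes, also called BAF complexes, use ATP to slide or eject nucleosomes and so keep promoters and enhancers open to transcription factors. Their motor is SMARCA4 (BRG1) or its paralogue SMARCA2 (BRM), and BRM014 inhibits both ATPases. In adrenergic neuroblastoma a circuit of transcription factors that includes ISL1, GATA and HAND proteins and MYCN maintains the sympathetic cell identity. Cells of this tumour also rely on strong cyclin D1 and E2F activity for entry into S phase.

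The 4 promoters printed here belong to genes described further on. They were picked by name, and whether they represent a gene group was not tested. They show 250 bases before and 50 bases after the transcription start in RefSeq on GRCh38.p14, with matches to a searched motif in capitals. MCM3, a subunit of the helicase that licenses replication origins, and CDC25A, the phosphatase that activates CDK2 at the start of S phase, hold E2F letters (TTTCCCGC, TTTGGCGC or TTTCGCGC on either strand). MCM3 has matches starting at -174 and -4 from the start site and CDC25A has 1 at -44. HSPA8, the constitutive HSP70 chaperone, holds heat shock elements (GAA and TTC alternating 3 times with 2 bases between neighbours) at -230 and -55, and DKK1, a secreted Wnt inhibitor, holds a TATA box (TATAAA on either strand) at -30. Of 35116 RefSeq promoters of this length, 2.74% held the E2F letters, 0.49% a heat shock element and 11.53% the TATA letters. No motif overlapped another in the 4 windows, and a match is a match of letters and not a measured binding site.
MCM3 (chr6:52284693-52284992, minus strand): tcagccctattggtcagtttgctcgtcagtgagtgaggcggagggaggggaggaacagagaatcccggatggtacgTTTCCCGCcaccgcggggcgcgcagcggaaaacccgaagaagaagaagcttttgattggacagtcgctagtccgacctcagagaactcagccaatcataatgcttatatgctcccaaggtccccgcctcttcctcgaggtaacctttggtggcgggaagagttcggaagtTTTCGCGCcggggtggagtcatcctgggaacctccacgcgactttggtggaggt
CDC25A (chr3:48188368-48188667, minus strand): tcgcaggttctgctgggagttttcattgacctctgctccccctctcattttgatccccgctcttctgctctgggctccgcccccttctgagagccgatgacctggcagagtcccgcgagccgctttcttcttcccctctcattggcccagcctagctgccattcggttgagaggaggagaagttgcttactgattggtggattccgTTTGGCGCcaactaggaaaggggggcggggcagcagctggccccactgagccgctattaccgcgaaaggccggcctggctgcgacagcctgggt
HSPA8 (chr11:123062087-123062386, minus strand): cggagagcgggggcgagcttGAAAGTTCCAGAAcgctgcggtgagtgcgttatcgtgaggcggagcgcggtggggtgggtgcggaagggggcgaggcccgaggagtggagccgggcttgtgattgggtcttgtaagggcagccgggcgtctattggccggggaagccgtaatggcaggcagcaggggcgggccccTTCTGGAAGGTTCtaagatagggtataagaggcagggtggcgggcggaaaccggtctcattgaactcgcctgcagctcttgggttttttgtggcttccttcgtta
DKK1 (chr10:52314031-52314330, plus strand): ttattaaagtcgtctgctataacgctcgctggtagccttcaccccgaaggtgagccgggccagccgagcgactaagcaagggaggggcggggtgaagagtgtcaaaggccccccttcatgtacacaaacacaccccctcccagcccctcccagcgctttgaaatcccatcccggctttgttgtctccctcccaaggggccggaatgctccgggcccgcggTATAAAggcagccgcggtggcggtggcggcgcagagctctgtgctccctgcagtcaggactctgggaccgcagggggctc

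The 12 libraries held 724913 to 1740475 gene counts. The BRM014 libraries of SK-N-DZ (724913 and 758288) and of IMR-32 (741970 and 775064) lay below every DMSO library, and those of KELLY (1505376 and 1512030) within the DMSO range. In a principal component analysis the first and second components (39.9% and 25.1% of the variance) separated the lines. On the third (11.4%) all 6 BRM014 libraries lay between -50.2 and -19.8 and all 6 DMSO libraries between 22.9 and 38.6. The labelled cell type was checked with 13 adrenergic markers, none of them at 0 in all 12 libraries. With BRM014, DBH and TH were at 0 in IMR-32 and TH in SK-N-DZ. The summed level was 8230 to 13400 CPM (counts scaled to a library total of 1000000) with DMSO and 7200 to 16100 with BRM014. That sum includes MYCN (3631 to 8409 CPM with BRM014, on the scale used below), so it says little about the other markers. Schwann cell markers summed to at most 47.7 CPM, fibroblast markers to at most 312, and immune, endothelial and epithelial markers to at most 13.2, 9.19 and 4.35. SMARCA4 itself did not pass the test in the mean, at -0.19 on the log2 scale (adjusted p = 0.134, and -0.32 with a call when KELLY was left out), and an ATPase inhibitor need not change the level of its target's RNA. SMARCA2 had 0 counts in every KELLY library and 0 to 5 counts per library in SK-N-DZ, against 7 to 27 in IMR-32.

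Genes of S phase entry, ribosomal proteins and glycolysis fell more often than they rose in the mean effect. In the quasi-likelihood test of edgeR over 12853 genes, 3879 (30.2%) passed an adjusted p of 0.05 in the mean effect, 1908 higher (14.8%) and 1971 lower (15.3%). Genes that rose or fell by at least 2-fold numbered 390 and 732, and those that moved by at least 4-fold numbered 83 and 241. The median change over all genes tested was -0.04. Each change is measured against a library's other genes, and in bulk cultures fewer cells of a kind and less RNA per cell cannot be told apart. Whether paired libraries of 1 group were grown as separate cultures is not stated in the labels, so the spread behind each p-value may be technical.

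Most of the genes in the mean did not reach the threshold in every line. Of the 3879 genes, 435 were called in all 3 lines, 876 in 2 lines, 1587 in 1 line and 981 in none. The single-line comparisons themselves called 1650 genes in IMR-32 (12.8%), 1485 in KELLY (11.6%) and 2498 in SK-N-DZ (19.4%). All 3 lines had the same sign for 3399 of the 3879 genes (87.6%), while 522 (13.5%) also passed a test for a difference in effect among the lines, which 6.47% of all genes did. The median size of the change was 0.60 on the log2 scale for genes called in no single line and 0.95 for genes called in all 3. Called in the same direction in every line were 237 higher genes (1.84% of those tested) and 182 lower genes (1.42%). The effect was largest in SK-N-DZ for 197 of these 419 genes, in IMR-32 for 118 and in KELLY for 104. Without SK-N-DZ the mean over the other two lines was called for 2599 genes.

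**Figure D1:**
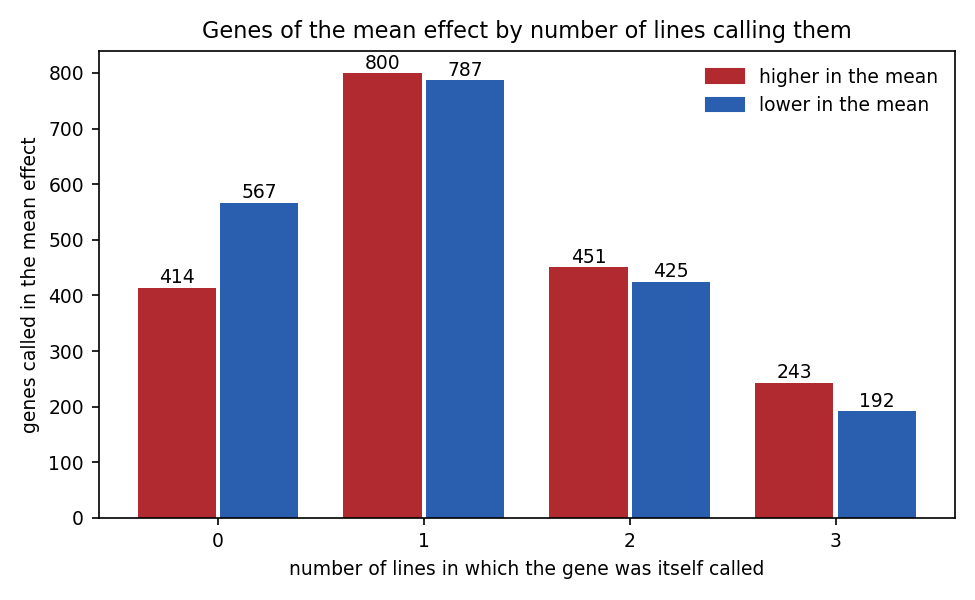
Genes called in the mean BRM014 effect (vertical axis, number of genes), split by the number of lines in which the gene was itself called (horizontal axis) and by direction in the mean. The bars for 0 lines hold 414 higher and 567 lower genes, and those for 3 lines hold 243 and 192, of which 16 did not go the same way in every line.

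Transcripts that rose and fell differed in composition. Genes higher in the mean had a median GC content of 40.9% and a median transcript length of 5228.5 bases, against 54.9% and 3586 bases for lower genes and 47.4% and 3793 bases for all tested genes with a GENCODE v29 transcript (97.5% of them). The genes themselves spanned a median of 66.6 kb when higher and 21.1 kb when lower. Among genes called in all 3 lines the medians were 39.6% GC, 30.2% T and 93.0 kb for the 237 that rose. For the 182 that fell they were 55.3% GC, 22.8% T and 16.9 kb. With an offset for transcript length and GC content, 3136 genes were called, of which 35.5% were higher, against 49.2% without it. Of the 3879 genes, 2046 kept their call and direction under that offset and 28 were called the other way. The offset moved the mean of 21 named genes by over 1.5 times. These were RUNX1T1, EML5, MYCN, BRCA2, RPS2, EEF2, SLC1A5, SLC3A2, GAPDH, SC5D, FZD3, SKIL, BMPR2, IGF2BP3, CHRNB4, ARID2, YAF2, KDM3A, TET2, MED23 and HNRNPH3, and all but MYCN kept their direction and call. Counts for a gene list are over those of its members that passed the filter on low counts. Directions below are those without the offset, and every group whose direction differs with it is named as such.

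DKK1 (hg38 chromosome 10, 52314281 to 52317657) had the highest mean change among named genes called the same way in each line. Its level was 387 and 357 CPM with DMSO and 1734 and 1785 with BRM014 in IMR-32, 179 and 241 against 1629.6 and 1498 in KELLY, and 10.2 and 20.9 against 183 and 189 in SK-N-DZ. The mean rise was 2.90 (SE 0.08, adjusted p = 5.03e-51), from line effects of 2.24 in IMR-32, 2.90 in KELLY and 3.56 in SK-N-DZ (difference among lines, adjusted p = 1.22e-05). ID4, an inhibitor of basic helix-loop-helix factors, stood at 56.6 and 65.9 CPM with DMSO and 390.4 and 426 with BRM014 in IMR-32, 8.99 and 9.13 against 77.1 and 47.4 in KELLY, and 10.2 and 29.7 against 81.1 and 73.3 in SK-N-DZ. That BRM014 and DMSO libraries did not overlap within any line was a condition for choosing these genes, met upward by 7.61% of all genes and downward by 7.24%. The mean rise of ID4 was 2.48 (SE 0.17, adjusted p = 1.49e-22), and its effect did not differ detectably among lines (adjusted p = 0.383). ETV1, an ETS factor downstream of ERK, stood at 23.5 and 14.6 CPM with DMSO and 72.2 and 35.1 with BRM014 in IMR-32, 67.2 and 77.6 against 306 and 337 in KELLY, and 5.39 and 5.51 against 35.9 and 42.9 in SK-N-DZ. Its mean rise was 2.15 (SE 0.19, adjusted p = 1.82e-16).

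The other genes of this rank joined neuronal, adhesion and signalling functions. SNAP91, a clathrin adaptor of synaptic vesicle recycling, rose by 2.09 (SE 0.17) and PRKAR2B, a regulatory subunit of protein kinase A, rose by 1.94 (SE 0.13). Line effects, given here and below in the order IMR-32, KELLY, SK-N-DZ, were 1.98, 2.16 and 2.14 for SNAP91 and 1.91, 1.79 and 2.11 for PRKAR2B. FAT4, an atypical cadherin, rose by 2.42 (SE 0.21) and ARHGAP28, a GTPase activating protein, by 2.50 (SE 0.25). These differed among lines (adjusted p = 0.00392 and 0.00354), and without SK-N-DZ the mean of ARHGAP28 was 1.57. DACT1, a Wnt pathway regulator, rose by 2.15 in the mean and by 1.29 without KELLY. ESRRG, an orphan nuclear receptor, rose by 2.07 in the mean and by 1.14 without SK-N-DZ. PNRC1, a nuclear receptor coactivator, NEK7, a kinase of the NIMA family, and ANKRD44 rose by 2.02, 1.93 and 1.92.

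**Figure D2:**
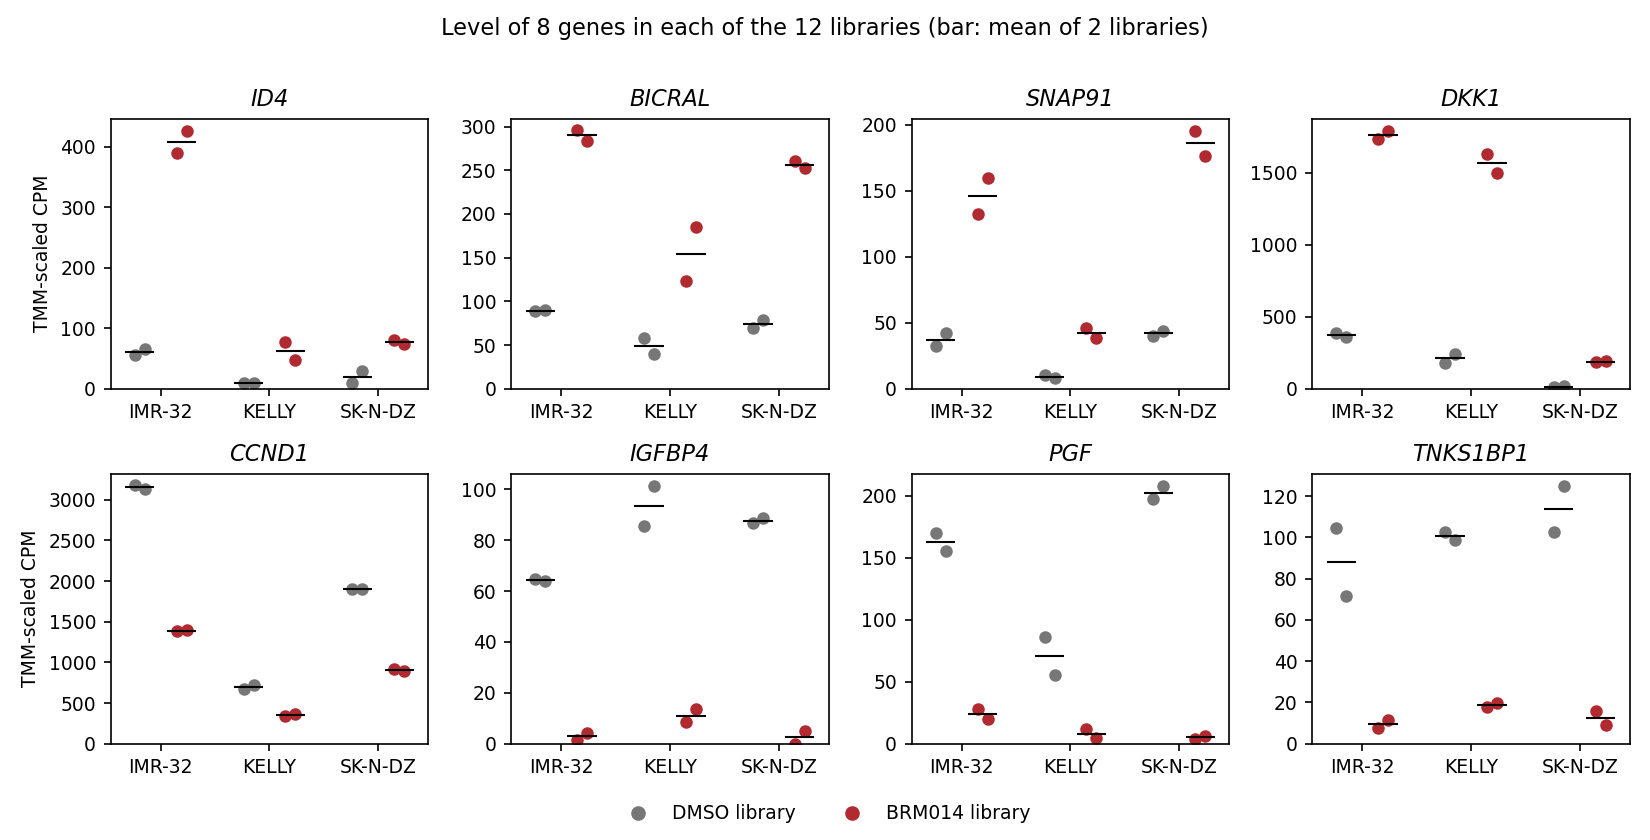
Level of 8 genes in each of the 12 libraries, in CPM scaled by trimmed-mean (TMM) factors on linear axes from 0. Points are libraries, bars the mean of 2, and in each line the BRM014 points lie above the DMSO points for ID4, BICRAL, SNAP91 and DKK1 and below them for CCND1, IGFBP4, PGF and TNKS1BP1. For all but CCND1 this separation was a condition of their choice.

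The genes that fell most were left with few counts, and their values are given as raw counts. IGFBP4, which binds and sequesters insulin-like growth factors (chromosome 17, 40443450 to 40457725), had 88 and 70 counts with DMSO and 1 and 3 with BRM014 in IMR-32, 143 and 133 against 13 and 21 in KELLY, and 145 and 161 against 0 and 4 in SK-N-DZ. The 6 BRM014 libraries held 0 to 21 counts and the 6 DMSO libraries 70 to 161, with a mean change of -4.18 (SE 0.28, adjusted p = 4.09e-24). PGF, a placental growth factor of the VEGF family, had 231 and 170 counts with DMSO and 19 and 14 with BRM014 in IMR-32, 144 and 73 against 18 and 7 in KELLY, and 329 and 377 against 3 and 5 in SK-N-DZ. It fell by 3.72 (SE 0.21, adjusted p = 3.63e-28). TNKS1BP1, a binding partner of tankyrase, had 142 and 78 counts with DMSO and 5 and 8 with BRM014 in IMR-32, 171 and 130 against 27 and 31 in KELLY, and 171 and 227 against 12 and 7 in SK-N-DZ. It fell by 2.95 (SE 0.21, adjusted p = 1.38e-22), without a detectable difference among lines (adjusted p = 0.537).

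CDKN1A, which encodes the CDK inhibitor p21, had 135 and 90 counts with DMSO and 15 and 25 with BRM014 in IMR-32, 269 and 241 against 40 and 36 in KELLY, and 258 and 219 against 0 and 7 in SK-N-DZ. It fell by 3.12 (SE 0.22), and the fitted mean was -5.00 without SK-N-DZ BRM014 replicate 2, where the remaining library held 0. NES, the intermediate filament nestin, had 53 and 37 counts with DMSO and 4 and 0 with BRM014 in IMR-32, 375 and 155 against 75 and 91 in KELLY, and 116 and 156 against 6 and 11 in SK-N-DZ. It fell by 2.71 (SE 0.25), and the fitted mean was -4.37 without IMR-32 BRM014 replicate 1, where again the remaining library held 0. The Notch glycosyltransferase LFNG had 32 and 42 counts with DMSO and 2 and 4 with BRM014 in IMR-32, 68 and 42 against 9 and 9 in KELLY, and 45 and 72 against 1 and 11 in SK-N-DZ. It fell by 2.51 (SE 0.34, adjusted p = 2.65e-09).

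A few single-line ratios of this group rest on 1 to 3 counts and are given with their 95% exact binomial counting interval. KIF26A, an atypical kinesin, was 63.8 times lower with BRM014 in SK-N-DZ (2 counts against 288, interval 17.5 to 529). SHD, an adaptor protein, was 99.5 times lower in KELLY (2 against 192, interval 27.2 to 828). ADGRG1, an adhesion G protein-coupled receptor, was 24.5 times lower in KELLY (3 against 71, interval 8.06 to 122). CDH24, a cadherin, was 25.5 times lower in IMR-32 (1 against 45, interval 4.35 to 1030). DOK4, a docking protein of receptor kinases, and AHNAK, a giant scaffold protein, fell by 2.48 (SE 0.11) and 2.48 (SE 0.15) from higher counts. AHNAK fell by 0.95 in IMR-32 and by 3.96 in SK-N-DZ.

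The 6 most uniform of the genes ranked here rose by 1.26 to 2.09 in the mean. Part of the 419 genes with a call of 1 direction in every line were ranked by uniformity, the ratio of the smallest line effect to the largest. To be ranked, a gene needed a mean change of at least 2-fold and treatments that did not overlap in any line. It also needed at least 20 counts in the higher group of each line, and unnamed transcripts were left out. The median of this ratio over the 419 genes was 0.597. The ratio was 0.93 for AMN1, 0.92 for ELOVL4, an elongase of very long fatty acids, 0.92 for SNAP91, 0.92 for the RNA DLEU1, 0.92 for BICRAL and 0.91 for PRUNE2. BICRAL is a subunit of the non-canonical BAF complex, and so belongs to the machinery that BRM014 inhibits. It stood at 89.0 and 89.7 CPM with DMSO and 296 and 284 with BRM014 in IMR-32, 57.6 and 39.6 against 123 and 185 in KELLY, and 69.5 and 78.2 against 261 and 253 in SK-N-DZ. Line effects were 1.70, 1.65 and 1.79, and the mean was 1.71 (SE 0.12, adjusted p = 3.55e-23). ELOVL4 stood at 87.5 and 92.4 CPM with DMSO and 203 and 216 with BRM014 in IMR-32, 89.3 and 89.0 against 205 and 214 in KELLY, and 46.1 and 51.2 against 146 and 98.5 in SK-N-DZ. Its mean rise was 1.26 (SE 0.12, adjusted p = 4.35e-15). These genes were chosen for their small spread among lines, so no test of that spread is given.

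CCND1, which encodes cyclin D1 and is among the most strongly expressed cell cycle genes of neuroblastoma (chromosome 11, 69641156 to 69654474), fell in all 3 lines from different starting levels. It stood at 3181 and 3133 CPM with DMSO and 1384 and 1395 with BRM014 in IMR-32, 668 and 718 against 336 and 359.8 in KELLY, and 1897 and 1899.7 against 916 and 897 in SK-N-DZ. The line effects were -1.18 in IMR-32, -0.99 in KELLY and -1.07 in SK-N-DZ. The mean fall was 1.08 (SE 0.05, adjusted p = 4.02e-37), with no detectable difference among lines (adjusted p = 0.582). The KELLY control level was below that of both treated IMR-32 libraries, so the treatment groups overlapped across lines while within each line they did not.

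**Figure D3:**
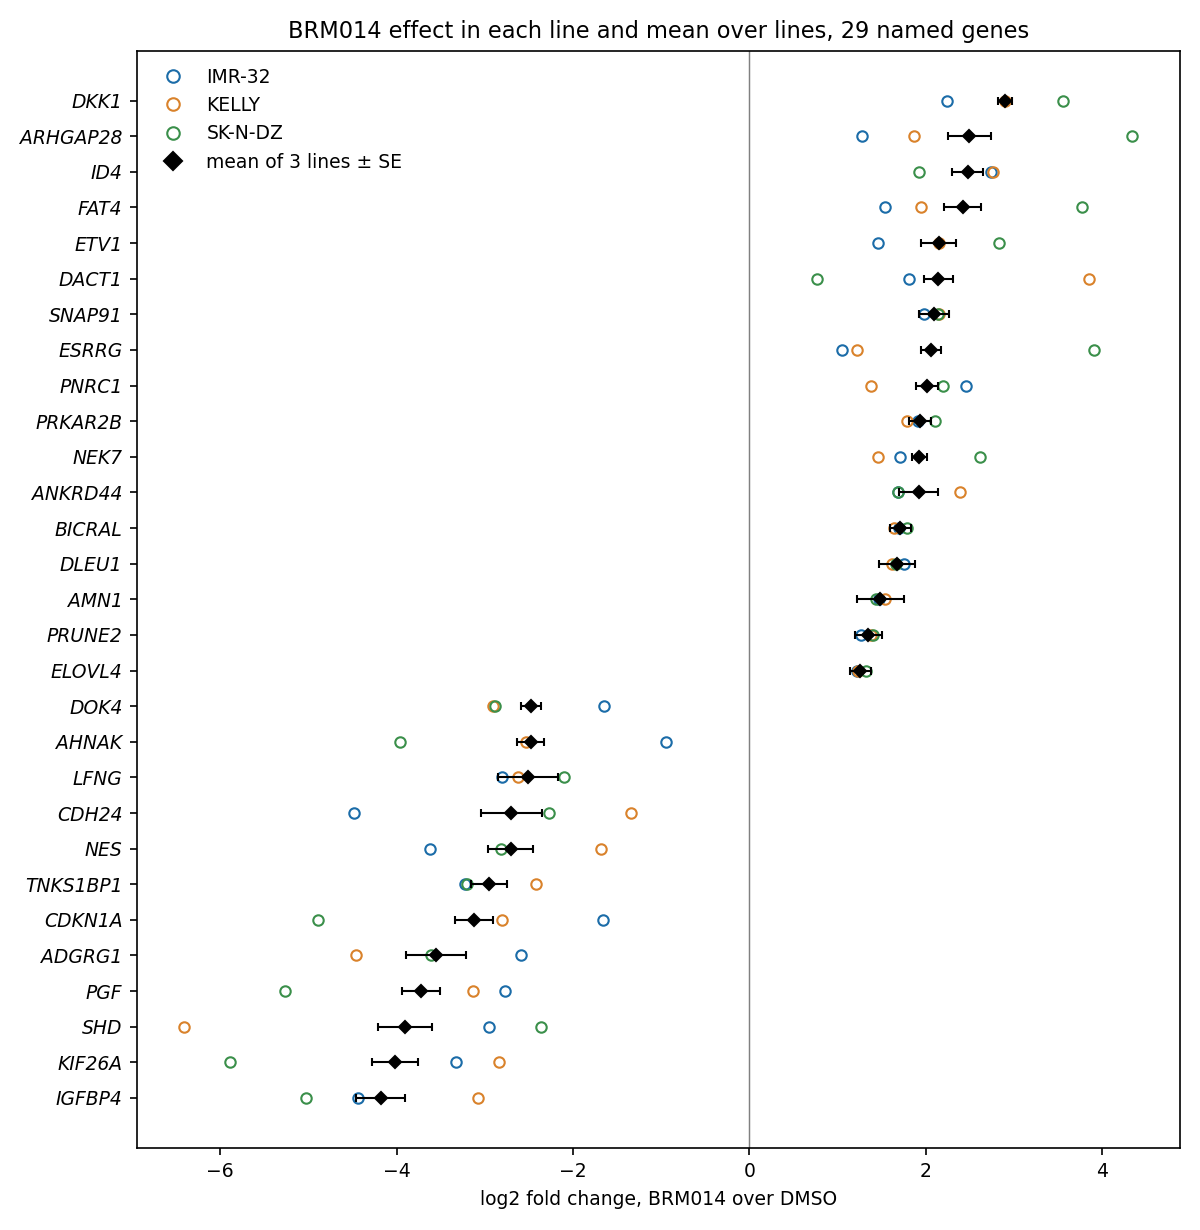
Log2 fold change of BRM014 over DMSO (horizontal axis) for 29 named genes, in each line (open circles) and in the mean (diamonds with SE). DKK1 lies at 2.90 and IGFBP4 at -4.18, while the circles of SNAP91, BICRAL and ELOVL4 lie close together and those of SHD and AHNAK lie far apart; circles resting on 1 to 3 counts (KIF26A, SHD, ADGRG1, CDH24) have wide counting intervals.

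Genes of S phase entry and DNA replication fell together. Of 46 genes for replication licensing and the fork, 33 fell and 0 rose, with a median of -0.61 against -0.04 for all genes, and 11 fell in every line. MCM4, a helicase subunit, stood at 287 and 270.0 CPM with DMSO and 109 and 140.5 with BRM014 in IMR-32, 338 and 341 against 188 and 229 in KELLY, and 325 and 377 against 150.2 and 155 in SK-N-DZ. It fell by 1.02 (SE 0.08, adjusted p = 2.34e-18), and MCM3, whose promoter is printed above, fell by 1.05 (SE 0.09, adjusted p = 5.02e-19). The MCM3 effect differed among lines (adjusted p = 0.00139), from -0.69 in KELLY to -1.64 in SK-N-DZ. Among 28 E2F and G1/S regulators 17 fell and 2 rose (median -0.43). CDC25A, the other E2F-lettered promoter shown, stood at 221 and 195 CPM with DMSO and 88.4 and 71.6 with BRM014 in IMR-32, 258 and 234 against 150.3 and 129 in KELLY, and 185 and 180.1 against 74.4 and 80.8 in SK-N-DZ. All treated libraries lay below the controls of their line, and the mean fall was 1.15 (SE 0.10, adjusted p = 1.77e-16).

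Nucleotide supply and repair moved the same way. Of 24 nucleotide synthesis genes 12 fell and 0 rose (median -0.31), and 2 were called lower in all 3 lines. RRM2, the small subunit of ribonucleotide reductase, stood at 622 and 645 CPM with DMSO and 362 and 413 with BRM014 in IMR-32, 831 and 980.4 against 588 and 548 in KELLY, and 468 and 499.6 against 278 and 307 in SK-N-DZ. It fell by 0.70 (SE 0.06, adjusted p = 1.05e-16), with line effects of -0.71, -0.67 and -0.73. TYMS, thymidylate synthase, fell by 1.05 (SE 0.19). Among 30 genes of homologous recombination and the Fanconi pathway 18 fell and 3 rose (median -0.33, and 0 rose with the length and GC offset). Of these 30 genes 1 was called lower in all 3 lines, and in KELLY 3 fell and 2 rose. EXO1, RAD51AP1 and BRCA2 fell by 0.88, 0.77 and 0.58.

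Mitotic genes did not share this direction, and the mean hides the split. Of 44 mitosis genes 7 rose and 9 fell in the mean (2 and 11 with the length and GC offset), with a median of 0.04. That is 36.4% called against 30.2% of all genes. In SK-N-DZ 17 rose and 1 fell, in IMR-32 0 rose and 6 fell, and in KELLY 0 rose and 7 fell. The median line effects were -0.18 in IMR-32, -0.21 in KELLY and 0.36 in SK-N-DZ. A difference among lines was called for 18 of the 44 genes, against 6 of the 46 replication genes.

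Genes of protein synthesis also fell more often than they rose. Of 44 large-subunit ribosomal protein genes 25 fell and 0 rose (median -0.46), and of 31 small-subunit genes 17 fell and 0 rose (median -0.49). Few were called lower in all 3 lines, 4 of the large-subunit and 1 of the small-subunit genes. Counts of ribosomal protein genes may include reads of processed pseudogenes, so single values are uncertain. RPL10, RPLP0, RPS2 and RPS4X fell by 0.88, 0.61, 0.67 and 0.62. Among 34 translation factors 15 fell and 2 rose (0 rose with the offset). EEF1A1, which delivers aminoacyl-tRNA to the ribosome, stood at 839 and 757 CPM with DMSO and 455 and 500.1 with BRM014 in IMR-32, 648 and 708 against 483 and 515 in KELLY, and 481 and 500.1 against 289.8 and 329.7 in SK-N-DZ. It fell by 0.61 (SE 0.06, adjusted p = 2.36e-14), and EEF2, the translocation factor, by 0.64 (SE 0.08). Of 40 nucleolar ribosome assembly genes 15 fell and 0 rose (median -0.25), and NCL and NOP56 fell by 0.52 and 0.68.

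Other lists of gene expression held calls in both directions. Of 31 subunits of RNA polymerases I and III 7 fell and 3 rose (0 rose with the offset), POLR1E of RNA polymerase I falling by 0.97. Of 19 aminoacyl-tRNA synthetases 3 fell and 2 rose (5 fell with the offset), among them the seryl-tRNA synthetase SARS, which fell by 0.50. Mitochondrial ribosomal proteins had 15 of 68 lower and 3 higher (0 with the offset). The shares called in these 3 lists were 32.3%, 26.3% and 26.5%, near or below the 30.2% of all genes. The nuclear-encoded respiratory chain had 4 of 72 lower and 4 higher, 11.1% called against 30.2% of all genes, and the split was 9 lower and 2 higher with scaling by library totals and 7 and 3 with the offset. NDUFB4, a complex I subunit, was among the higher ones at 0.93.

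Chaperone genes of the cytosol, the mitochondrion and the endoplasmic reticulum were among the genes that fell. Of 29 heat shock chaperones 15 fell and 3 rose (1 with the offset), with a median of -0.35. HSPA8 stood at 1765 and 1788 CPM with DMSO and 760.3 and 978 with BRM014 in IMR-32, 1065 and 1176 against 783 and 684 in KELLY, and 1158 and 1072 against 494 and 437 in SK-N-DZ. It fell by 0.97 (SE 0.05, adjusted p = 2.96e-29), with line effects of -1.03, -0.61 and -1.26 that differed among lines (adjusted p = 5.60e-04). HSP90AB1, the constitutive HSP90, fell by 0.68 (SE 0.05) and its co-chaperone FKBP4 by 1.09 (SE 0.12), and the mitochondrial chaperonin HSPD1 fell by 0.49 (SE 0.06). Of 13 subunits of the TRiC chaperonin and prefoldin 4 fell and 1 rose (38.5% called, against 30.2% of all genes), CCT3 falling by 0.52. Of 31 proteasome subunits 6 fell, PSMB5 among them (-0.54), and 1 rose. That is 22.6% called against 30.2% of all genes, and the proteasome median was -0.04, as for all genes. In the endoplasmic reticulum 10 of 25 chaperone and unfolded protein response genes fell and 3 rose (1 with the offset), and HSPA5, which encodes BiP, fell by 0.71 (SE 0.07).

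Glycolysis and amino acid supply fell. Of 25 glycolysis genes 13 fell and 0 rose (median -0.57), 6 of them in every line. GAPDH stood at 534 and 528 CPM with DMSO and 183 and 263 with BRM014 in IMR-32, 905 and 821 against 429 and 426 in KELLY, and 955 and 946 against 351 and 408 in SK-N-DZ. It fell by 1.20 (SE 0.07, adjusted p = 5.26e-29), with no detectable difference among lines (adjusted p = 0.423). SLC2A1, the glucose transporter GLUT1, fell by 1.42 (SE 0.12, adjusted p = 1.08e-17) and ENO1 by 0.73 (SE 0.08). GAPDH and ENO1 also have processed pseudogenes. Of 28 ATF4 targets and amino acid synthesis genes 15 fell and 1 rose (median -0.54). SLC3A2 and SLC1A5, carriers of large neutral amino acids and glutamine, fell by 0.79 (SE 0.09) and 1.39 (SE 0.15). Cholesterol and fatty acid genes were mixed, with 12 of 32 lower and 6 higher (3 with the offset), SC5D of the sterol pathway rising by 0.67. Their median was 0.25 in KELLY, -0.52 in IMR-32 and -0.40 in SK-N-DZ.

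**Figure D4:**
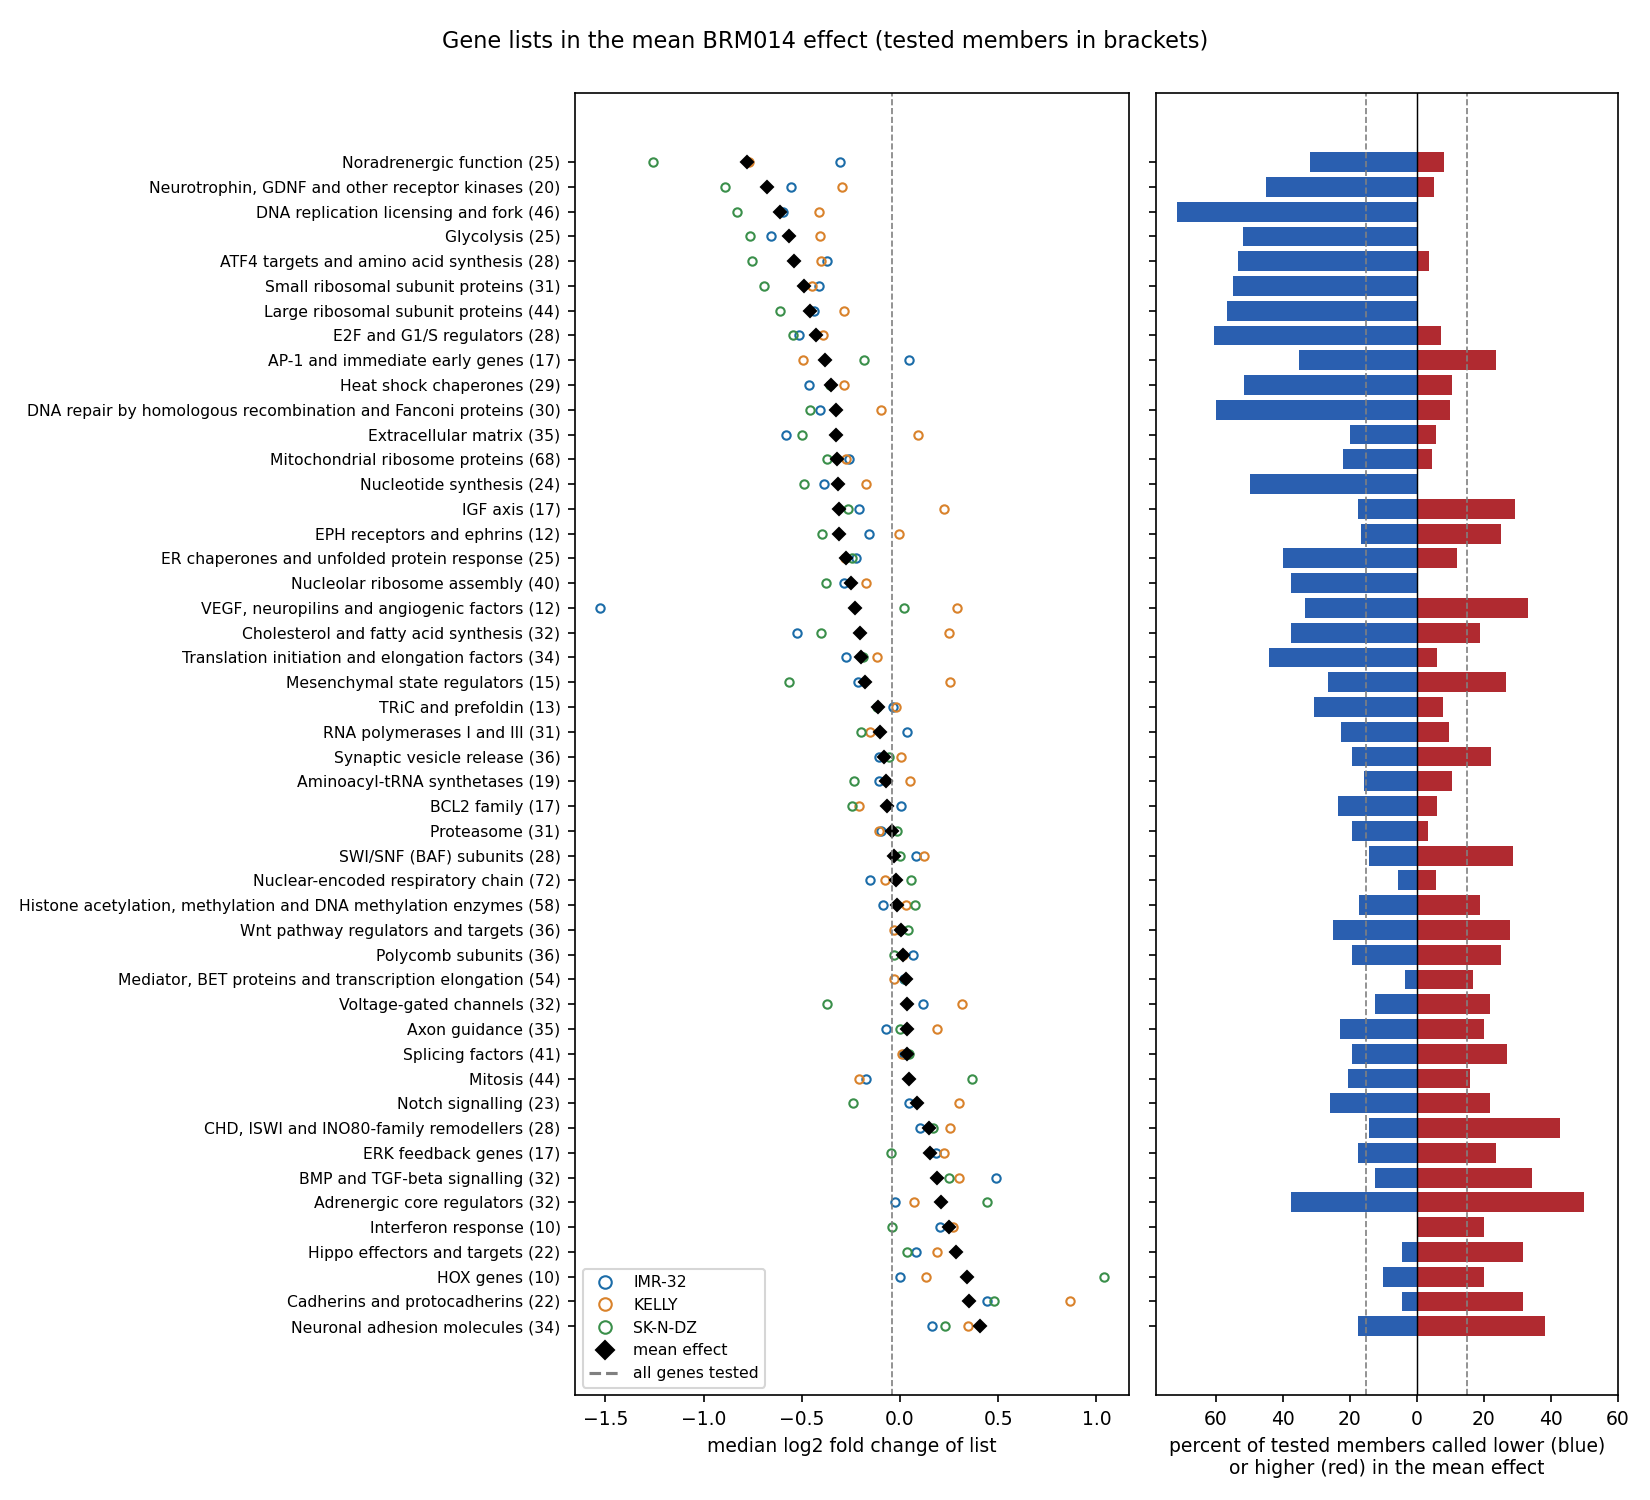
Gene lists with at least 10 tested members, except cell type markers and 1 other list, ordered by their median log2 change in the mean effect (left, diamonds, with the medians in each line as circles and the median of all tested genes as a dashed line) and the percent of members called lower or higher in the mean (right, dashed lines at 15.3 and 14.8 for all genes). Replication, ribosomal, glycolysis and ATF4 lists lie to the left in all 3 lines; the mitosis, extracellular matrix and cholesterol lists have lines on both sides of 0. With the length and GC offset the splicing, Polycomb, Hippo and mitosis lists hold more lower than higher calls.

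Single genes of growth arrest and cell death moved both ways. CCNG2, an atypical cyclin linked to growth arrest, stood at 80.9 and 72.3 CPM with DMSO and 302 and 313 with BRM014 in IMR-32, 90.5 and 67.7 against 212 and 221 in KELLY, and 74.3 and 79.9 against 366 and 354 in SK-N-DZ. It rose by 1.89 (SE 0.10, adjusted p = 6.00e-31), with every treated library above the controls of its line. AEN, an apoptosis-enhancing nuclease, fell by 0.89 (SE 0.07), beside CDKN1A above. Of 17 BCL2 family genes 4 fell and 1 rose, 29.4% called against 30.2% of all genes. The survival factor BCL2 fell by 0.95 (SE 0.13). Of 10 interferon response genes 2 rose and 0 fell (20% called), and 0 rose with the offset.

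Signalling lists held changes in both directions. The BMP and TGF-beta list had 11 of 32 members higher and 4 lower (median 0.19), 5 of them higher in every line. SKIL, a corepressor of SMAD proteins, rose by 1.44 (SE 0.05), ID2, a BMP target, by 0.65 (SE 0.06) and the receptor BMPR2 by 0.93 (SE 0.09). ID2 stood at 451 and 458 CPM with DMSO and 712 and 699.6 with BRM014 in IMR-32, 822 and 778 against 1351 and 1197 in KELLY, and 479 and 459 against 711 and 750.2 in SK-N-DZ, and its line effects were 0.63, 0.67 and 0.64. Wnt regulators and targets had 10 of 36 higher and 9 lower (5 lower with the offset, 9 and 9 with library totals), with DKK1 and DACT1 among the higher and the receptor FZD3 rising by 0.88. Notch genes had 5 of 23 higher and 6 lower (3 with the offset). The Notch target HEY1 rose by 1.68 (SE 0.24) while LFNG fell. Hippo effectors had 7 of 22 higher and 1 lower (36.4% called against 30.2% of all genes), but 2 higher and 3 lower with the offset.

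Genes of receptor kinases fell more often than they rose. Of 20 receptor kinases 9 fell and 1 rose (median -0.68). RET, the GDNF family receptor kinase, had 2 and 4 counts with DMSO and 0 and 0 with BRM014 in IMR-32, 256 and 204 against 1 and 9 in KELLY, and 166 and 250 against 1 and 1 in SK-N-DZ. With BRM014 the level in SK-N-DZ was 92.1 times lower (interval 25.3 to 763). IMR-32 had 6 counts with DMSO against 0, which is 1.13-fold over a floor of 3 counts in the group. That ratio leaves out the counting error of the 6 counts, so a fall of RET in IMR-32 is not established. Since the IMR-32 BRM014 group is at 0, no fitted mean is given for RET. Of 12 VEGF and neuropilin genes 4 rose and 4 fell (3 and 4 with the offset). VEGFA stood at 55.1 and 37.5 CPM with DMSO and 7.37 and 19.7 with BRM014 in IMR-32, 114 and 77.6 against 34.6 and 32.0 in KELLY, and 44.9 and 52.3 against 14.6 and 3.79 in SK-N-DZ, and fell by 1.90 (SE 0.25, adjusted p = 1.14e-09). The IGF axis had 5 of 17 higher and 3 lower although its median was -0.31. The RNA-binding protein IGF2BP3 rose by 0.57 (SE 0.08), against the fall of IGFBP4. Immediate early genes had 4 of 17 higher and 6 lower (4 and 4 with the offset), and ERK feedback genes 4 of 17 higher and 3 lower (5 lower with library totals).

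The adrenergic identity genes changed in nearly every member, without a common direction. Of 32 core regulators 16 rose and 12 fell, 87.5% called against 30.2% of all genes, and 22 differed among lines. SOX4 stood at 480.1 and 531 CPM with DMSO and 1485 and 1489 with BRM014 in IMR-32, 167 and 184 against 706 and 656 in KELLY, and 234 and 265 against 552 and 615 in SK-N-DZ. It rose by 1.58 (SE 0.06, adjusted p = 8.60e-40) and differed among lines (adjusted p = 0.00162), as did SOX11, which rose by 0.83 (SE 0.05). The T-box factor TBX2 stood at 522 and 466 CPM with DMSO and 239 and 191 with BRM014 in IMR-32, 269 and 200.0 against 57.5 and 77.5 in KELLY, and 1285 and 1487 against 392 and 469 in SK-N-DZ. It fell by 1.56 (SE 0.08, adjusted p = 8.36e-33), and GATA2 fell by 1.59 (SE 0.09). Among the 13 adrenergic markers 4 rose and 6 fell, and 7 rose and 4 fell with the offset.

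Noradrenergic function genes fell more often than they rose, and synaptic vesicle genes moved both ways. Of 25 noradrenergic function genes 8 fell and 2 rose (median -0.78). SCG2, a granin of dense core vesicles, stood at 132 and 132 CPM with DMSO and 60.4 and 46.4 with BRM014 in IMR-32, 192 and 144 against 64.7 and 85.8 in KELLY, and 216 and 189 against 75.8 and 49.3 in SK-N-DZ. It fell by 1.39 (SE 0.12, adjusted p = 7.14e-17), and CHRNB4, a nicotinic receptor subunit, rose by 0.68 (SE 0.08). Of 36 synaptic vesicle genes 8 rose and 7 fell, against 4 and 5 with the offset. CPLX2, complexin 2, fell by 1.35 (SE 0.11) with line effects of -1.35, -1.14 and -1.55, against the rise of SNAP91. Of 32 voltage-gated channel genes 7 rose (4 with the offset) and 4 fell, 34.4% called against 30.2% of all genes. The potassium channel KCNH8 rose by 1.26 (SE 0.23).

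Adhesion genes of neurons were called higher more often than lower in the mean, though not in IMR-32, where the list medians were still above 0. Of 34 neuronal adhesion molecules 13 rose and 6 fell (median 0.40), and of 22 cadherins and protocadherins 7 rose and 1 fell (median 0.35). By line, taking IMR-32, KELLY, SK-N-DZ in turn, 3, 10 and 10 neuronal adhesion genes were called higher and 4, 1 and 4 lower, as were 1, 7 and 6 cadherin genes higher and 1, 2 and 1 lower. The line medians, in the same order, were 0.16, 0.35 and 0.23 for neuronal adhesion genes and 0.44, 0.86 and 0.48 for cadherin genes. Of the cadherin list 36.4% was called in the mean, against 30.2% of all genes. A difference among lines was called for 8 and 5 members of the neuronal adhesion and cadherin lists. CNTN1, contactin 1, stood at 47.8 and 49.4 CPM with DMSO and 165 and 187 with BRM014 in IMR-32, 48.6 and 58.6 against 254 and 281 in KELLY, and 223 and 255 against 711 and 566 in SK-N-DZ. It rose by 1.87 (SE 0.10, adjusted p = 9.05e-31) and differed among lines (adjusted p = 0.01). CDH2, N-cadherin, rose by 0.61 (SE 0.08). Axon guidance genes had 7 of 35 higher and 8 lower (10 and 7 with the offset). The semaphorin receptor PLXNA1 stood at 77.2 and 85.1 CPM with DMSO and 11.8 and 35.1 with BRM014 in IMR-32, 406 and 246 against 71.2 and 73.0 in KELLY, and 248 and 273 against 70.5 and 22.7 in SK-N-DZ, and fell by 2.15 (SE 0.15, adjusted p = 9.32e-22). EPH receptors and ephrins had 3 of 12 higher and 2 lower (1 and 0 with the offset), although their median was -0.31.

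Matrix and mesenchymal genes showed no shared rise. Of 35 extracellular matrix genes 7 fell and 2 rose, 25.7% called against 30.2% of all genes. The laminin chain LAMC1 rose by 0.64 (SE 0.12). Of 15 mesenchymal state regulators 4 rose and 4 fell. Of the 17 SOX factors listed 6 could be tested, and of these 4 rose and 0 fell (median 1.03), SOX5 by 1.24 (SE 0.27). Of the 31 HOX genes 10 could be tested, of which 2 rose and 1 fell (30% called), and HOXD9 rose by 1.57 (SE 0.32). Of 9 fibroblast markers 4 could be tested, of which 2 fell and 0 rose, among them THY1, also a neuronal surface protein, which fell by 1.16 (SE 0.24). The part of any other cell type in these changes was not tested.

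Lists of chromatin regulators held calls in both directions, and for some the balance depended on the length and GC offset. Of 28 BAF subunits 8 rose and 4 fell, and besides BICRAL the PBAF subunit ARID2 rose by 0.89 (SE 0.07, adjusted p = 8.21e-20) and the canonical subunit ARID1B by 0.64 (SE 0.08). ARID2 stood at 339 and 361 CPM with DMSO and 579 and 494 with BRM014 in IMR-32, 198 and 163 against 353 and 341 in KELLY, and 263 and 262 against 613 and 534 in SK-N-DZ. Of 28 CHD, ISWI and INO80-family remodellers 12 rose and 4 fell, but 5 rose and 5 fell with the offset. CHD4, the NuRD remodeller, was among the lower ones at -0.58. Polycomb subunits had 9 of 36 higher and 7 lower, against 4 and 10 with the offset and 7 and 9 with library totals, and YAF2 rose by 0.77 (SE 0.12). Histone and DNA modifying enzymes had 11 of 58 higher and 10 lower (11 and 12 with library totals). The demethylases KDM5B and KDM3A rose by 1.19 (SE 0.08) and 0.72 (SE 0.12), and TET2 by 0.51 (SE 0.08). Mediator and elongation genes had 9 of 54 higher and 2 lower (7 and 6 with the offset), 20.4% called against 30.2% of all genes, MED23 rising by 0.55. Splicing factors had 11 of 41 higher and 8 lower, against 4 and 24 with the offset and 10 and 12 with library totals. Among them HNRNPH3 was at 0.53 and SRSF2 at -0.34.

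An average can also hide effects that oppose each other. Calls in opposite directions in 2 lines were made for 92 genes (0.716%), all of which differed among lines, and 25 of them were still called in the mean. NRP1, a co-receptor of semaphorins and VEGF, stood at 215 and 228 CPM with DMSO and 22.1 and 47.8 with BRM014 in IMR-32, 186 and 156 against 302 and 268 in KELLY, and 171 and 191 against 190.1 and 188 in SK-N-DZ. It fell in IMR-32 and rose in KELLY, and its mean of -0.62 turned to 0.40 without IMR-32. Its paralogue NRP2 had line effects of -1.28, 2.52 and 1.24 and a mean of 0.83, which was -0.02 without KELLY. The corepressor RUNX1T1 stood at 509 and 480.4 CPM with DMSO and 194 and 258 with BRM014 in IMR-32, 158 and 116 against 359 and 348 in KELLY, and 238 and 240.2 against 585 and 669 in SK-N-DZ. The mean of 0.54 was 0.13 without KELLY and 0.12 without SK-N-DZ, no longer called in either case.

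Other genes of this kind included regulators of the sympathetic lineage. ISL1, a LIM homeobox factor, had line effects of -0.42, 1.79 and 0.51 and a mean of 0.63, which lost its call without KELLY (0.04). TIMP3, an inhibitor of metalloproteinases, stood at 472 and 394 CPM with DMSO and 193 and 205 with BRM014 in IMR-32, 13.8 and 10.6 against 143 and 149 in KELLY, and 1.80 and 1.10 against 2.66 and 0 in SK-N-DZ. The SK-N-DZ libraries held 5 counts with DMSO and 2 with BRM014, and the mean of 0.76 was not called (adjusted p = 0.223), but was 1.21 and called without SK-N-DZ. EML5, a microtubule-binding protein, had a mean of -0.22, and 0.45 without IMR-32. Its mean lost the call (-0.18 to -0.16) without the second replicate of IMR-32 BRM014, KELLY DMSO or SK-N-DZ BRM014. The MYCN gene stood at 5302 and 4748 CPM with DMSO and 3719 and 3631 with BRM014 in IMR-32, 7209 and 5966 against 4803 and 4398 in KELLY, and 5956 and 6248 against 8138 and 8409 in SK-N-DZ. It fell in IMR-32 and KELLY and rose in SK-N-DZ, so that its mean of -0.18 (SE 0.04, adjusted p = 5.08e-05) describes no single line, and it was 0.17 with the length and GC offset. Without IMR-32 or without KELLY it was -0.04 and -0.01, not called.

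Genes that changed in the 3 lines had mostly the same sign in SMARCA4-mAID cells given auxin, in which the SMARCA4 protein level was not measured here. SMARCA4-mAID cells are engineered IMR-32 cells, and 2 auxin and 2 ethanol libraries were compared, which share no control with the BRM014 contrasts. In this contrast of 4 libraries, against 12 behind the mean, auxin changed 281 genes (2.19%), 132 higher and 149 lower. Of these, 179 (63.7%) were called in the mean BRM014 effect in the same direction and 31 in the opposite one. Of the 419 genes with 1 direction in every line, 372 (88.8%) had the same sign with auxin, as did 61.7% of all genes tested, and 77 were called in the same direction and 1 in the opposite. The 237 higher genes had a median of 0.88 with BRM014 and 0.27 with auxin, and the 182 lower genes -1.14 and -0.40. These genes were chosen for passing the BRM014 tests, which favours large BRM014 values, so their sizes are a description and no comparison of strength.

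Named genes differed in how far they moved with auxin. DKK1 rose by 1.51 with auxin (adjusted p = 1.56e-17), BICRAL by 1.01 (adjusted p = 0.00175) and NEK7 by 0.94 (adjusted p = 1.79e-06). LFNG was at -2.35 (adjusted p = 0.00647) beside its BRM014 mean of -2.51, SHD at -3.41 beside -3.90, and CCND1 at -0.29 (adjusted p = 0.0144) beside -1.08. ESRRG and AHNAK were at -0.08 and 0.27 and were not called (adjusted p = 0.927 and 0.66). The difference between the mean BRM014 effect and the auxin effect was called for 484 genes (3.77%), among them 183 of the 419, in each of which the BRM014 change was the larger in size, with the same selection on BRM014. Inhibitor and degron differ in target, since BRM014 also acts on SMARCA2, in cell line and possibly in exposure time, and these cannot be told apart here.

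**Figure D5:**
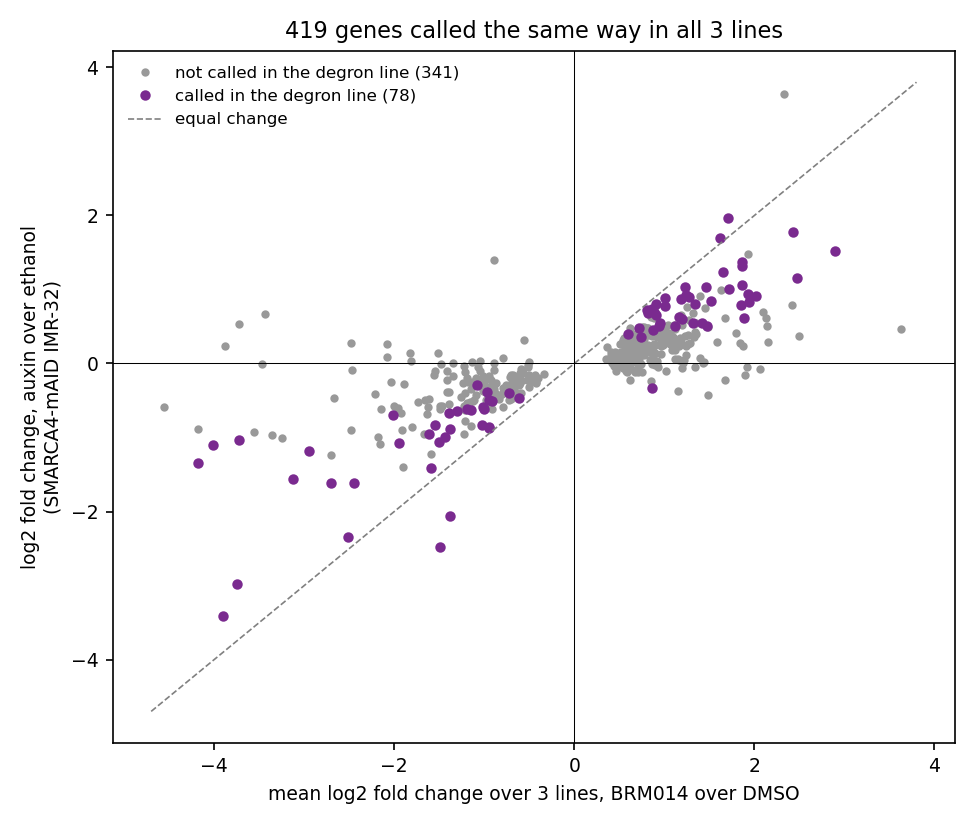
The 419 genes called in the same direction in all 3 lines, by their mean log2 change with BRM014 (horizontal axis) and their log2 change with auxin in SMARCA4-mAID IMR-32 cells (vertical axis). The 78 genes called with auxin are in purple, most points lie between the horizontal axis and the dashed line of equal change, and 6 of the 419 genes had a group with 0 counts, so that their plotted values depend on the fit.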

How the data were processed

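The authors deposited raw counts for 28063 gene symbols in each library, which they describe as conversion counts. The submitters' processing notes name HISAT, HTSeq, DESeq2 and hg38 but give neither versions nor roles. The sources used here do not give how a read qualified for counting, the annotation or the use of strand, so reads of overlapping genes, antisense partners and near-identical copies may have been assigned to either gene. Summary lines of HTSeq entered neither library sizes nor tests. Reads with no feature made up 48.8% to 57.4% of the BRM014 libraries and 47.7% to 55.6% of the DMSO libraries. The unlabelled KELLY libraries, at 0.348% of the labelled total, entered no comparison. No column of another series was present.

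The quasi-likelihood test of edgeR 4.0.16 (R 4.3.3) was fitted to the 16 labelled libraries in 8 groups, with TMM factors, filterByExpr (12853 genes kept) and 8 residual degrees of freedom. Contrasts were BRM014 minus DMSO in each line, their mean, their difference among lines, auxin minus ethanol, and the mean minus the auxin effect. A gene was called where its Benjamini-Hochberg adjusted p was under 0.05. SE are approximate standard errors of log2 fold changes, derived as the absolute change divided by the square root of the quasi-likelihood F. They are unreliable at low counts. CPM values scale each library to 1000000 counts in tested genes, corrected by its TMM factor. The biological coefficient of variation was 0.143, and counts of the 2 libraries of a group differed by more than sampling noise (chi-square over degrees of freedom 2.36 to 3.34). Intervals and floors of counts hold counting error alone. Tested on simulated data for this mean over 12411 genes, the fit recovered 95% of 100 genes changed by 1 on the log2 scale. Of 100 changed by 0.5 it recovered 44%, and 2.8% of calls were false. Whether these rates hold for the measured libraries was not tested.

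The genes and the 57 lists were chosen with earlier results of these data known. Of 1792 list entries 1763 were in the files and 1500 were tested. Named were the 12 highest and 12 lowest mean changes among genes called the same way in every line, without overlap between treatments and with at least 20 counts in the higher group of each line; the 6 most uniform of these by at least 1 on the log2 scale; the 6 smallest p for differences among lines in genes called in opposite directions; SMARCA4, SMARCA2, MYCN and CCND1; and up to 4 members of each list by smallest p. Of these, 107 are described. Some genes and 1 list are not reported here, and the other genes left out were chosen after their values were seen. Positions and promoters are from RefSeq on GRCh38.p14 (hg38), transcript lengths and GC content from GENCODE v29. Promoter entries matched 54.0% of tested genes, below 80%, so a comparison of motif shares between gene sets would be void and none is made. Alternatives were RLE factors, library totals, DESeq2 1.42.0, no low-count filter, a fit to the 12 libraries, a replicate block, an offset smooth in transcript length and GC content (mgcv 1.9.3), thinning to 724913 counts, leaving out each library or each line, and an adjusted p of 0.01.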

Additional observations from a re-analysis of the deposited data

Results flagged for a closer look

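Among the 107 genes described, 28 passed the test for a difference of the BRM014 effect among the 3 lines (edgeR, adjusted p below 0.05). Of these, RUNX1T1 (1.86e-22), TIMP3 (1.86e-22), ISL1 (3.37e-20), EML5 (4.64e-19), NRP2 (4.94e-19) and NRP1 (1.31e-16) were chosen by this test among genes called in opposite directions, so their small adjusted p-values, in brackets, follow from the choice. MYCN, named for its part in the disease, had an adjusted p of 1.75e-16.

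The other genes kept 1 direction and differed in size. ESRRG (adjusted p = 2.62e-11) and AHNAK (2.37e-09) moved most in SK-N-DZ, with line effects of 1.05, 1.23 and 3.92 and of -0.95, -2.54 and -3.96, in the order IMR-32, KELLY, SK-N-DZ. SKIL (1.07e-10) and DACT1 (1.02e-07) moved most in KELLY, with 0.86, 2.02 and 1.44 and with 1.81, 3.86 and 0.77. Adjusted p-values of the difference were 1.22e-05 for DKK1, 7.65e-05 for GATA2, 9.13e-05 for SOX11, 1.49e-04 for KDM5B, 2.79e-04 for NEK7 and 5.60e-04 for HSPA8. They were 0.00101 for CDKN1A, 0.00119 for HSP90AB1, 0.00126 for SHD, 0.00139 for MCM3, 0.00162 for SOX4, 0.00354 for ARHGAP28 and 0.00392 for FAT4. For CNTN1, PGF, PNRC1 and DOK4 they were 0.01, 0.0127, 0.0393 and 0.0458.

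The 2 KELLY libraries without 4sU, which no comparison uses, held 9827 counts together, 0.348% of the labelled KELLY DMSO counts, in 1420 to 1707 genes. These are raw counts, not scaled for sequencing depth.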

How the results depend on the processing

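The number of genes called in the mean effect stayed between 2599 and 3907 over the 25 settings, against 3879, and no called gene was called the other way with RLE factors, library totals (3907 called), DESeq2 (3748), thinning to the lowest total (3426) or any library left out. The offset for transcript length and GC content had the widest reach: 1112 genes were higher and 101 higher in all 3 lines, and with a replicate block added the numbers were 1071 and 105. The cause was not tested. At an adjusted p of 0.01, by construction fewer genes were called: 1294 were lower in the mean, 464 differed among lines, 136 and 98 were higher and lower in all 3 lines, 46 went in opposite directions in 2 lines and 293 differed between the mean and the auxin effect. The mean over IMR-32 and KELLY, from fewer libraries, had 1275 lower genes.

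Leaving out 1 library at a time gave 3314 to 3740 genes in the mean effect (1645 to 1799 higher, 1665 to 1957 lower), 666 to 804 that differed among lines, 158 to 221 higher and 123 to 182 lower in all 3 lines, 68 to 92 in opposite directions, 446 to 550 in the comparison with auxin and 577 to 620 called list members. Among named genes the mean of EML5 turned to 0.45 and that of NRP1 to 0.40 without IMR-32, that of NRP2 to -0.024 without KELLY, and that of MYCN to 0.17 with the offset and to 0.17 with offset and replicate block. Of all other mean changes of the 107 named genes under an alternative, 2659 kept direction and call, 9 lost the call (PSMB5 with offset and block, and the others as given above) and 2 gained it. The offset moved 21 named genes by over 1.5 times, with GAPDH at -0.79, SLC1A5 at -0.92, SKIL at 0.89, BRCA2 at -1.06 and ARID2 at 0.55. The comparison with auxin has no value in the fit to 12 libraries, which leaves the degron out.

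Replicate numbers gave no sign of pairing: deviations of same-numbered libraries between treatments correlated at -0.01 in IMR-32, -0.01 in KELLY and 0.01 in SK-N-DZ across 12853 genes. A replicate block called 3759 genes, 1842 higher and 1917 lower. Depth limits the genes that fell most, whose BRM014 libraries hold few counts.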
